A study of Mus musculus with 12 samples.

Results

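Some genes responded differently to the loss of the zinc finger factors Zfp148 and Zfp281 in immature CD4 and in immature CD8 thymocytes, and these genes are described here. The measure is the difference of 2 effects, the change from control to double knockout (dKO) in the immature CD4 population minus the same change in the immature CD8 population. All 12 libraries of the series entered it, and of 13383 genes tested 58 showed a difference. Mouse thymocytes were sorted from thymus, and their RNA was sequenced in 4 groups of 3 libraries. Both gates took CD69 positive, CD44 low cells: ImCD4 cells were also CD4 positive and negative for CD8 and H2-Kb, and ImCD8 cells were CD8 and TCR beta positive and CD4 negative. In all 4 groups both copies of Zfp148 and of Zfp281 carry loxP sites. In dKO cells Cre recombinase under the Cd4 promoter, which is active from the CD4 and CD8 double-positive stage on, deletes the floxed parts, and controls carry the floxed genes without Cre. Effects of Cre itself therefore cannot be told apart from the loss of both genes. For the 6 ImCD8 libraries the titles and the genotype labels are opposite: the genotype label gives Cre to the libraries with control in the title and none to those with dKO. Groups follow the titles, and with them the direction of every ImCD8 effect and of every difference. The ages of the mice are not given, and no label ties the libraries of a group to separate mice, so p-values measure only how far these libraries spread, and that spread may be technical.

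Zfp148 and Zfp281 are closely related proteins with C2H2 zinc fingers that bind G-rich DNA and can activate or repress genes. Thymocytes that pass positive selection become CD4 or CD8 single-positive cells. The choice is governed by the length and strength of T cell receptor signals and by cytokine signals, and it is fixed by ThPOK (Zbtb7b) in the CD4 lineage and by Runx3 in the CD8 lineage.

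Libraries held 7315833 to 10943143 gene counts, and 18504 to 20305 genes had at least 1 count. Levels are given in CPM, counts scaled to a common depth with TMM library sizes, and a mean level carries its SD over 3 libraries. A log2 fold change, which is called an effect, and a difference of effects carry a standard error (SE). Correlations of log2 CPM between libraries of the same group were 0.983 to 0.992. The lineage genes matched the gates. Cd4 had 1090 to 1417 CPM in the ImCD4 and 1.38 to 11.3 CPM in the ImCD8 libraries, and Zbtb7b had 121.5 to 388 CPM and at most 0.127 CPM. Cd8a had 22.996 to 89.1 CPM in ImCD4 and 1606 to 1906 CPM in ImCD8. Only the ImCD4 gate excluded H2-Kb, and its gene H2-K1 had 249 to 317 CPM in ImCD4 and 2616.5 to 3384 CPM in ImCD8. Cd69 had 554 to 698 CPM in ImCD4 and 192 to 243 CPM in ImCD8. The populations may thus differ in stage of maturation as well as in lineage. A response that depends on lineage cannot be told apart from one that depends on stage. The third principal component, which carried 5.31% of the variance, set apart 4 libraries, replicate 3 of each group. In ImCD4 the control and dKO libraries did not overlap in gene counts (8276742 to 9173424 against 9319732 to 10943143), in reads outside any gene (13.6% to 16.4% against 10.5% to 12.9%), in ambiguous reads (5.37% to 5.46% against 5.55% to 5.67%) or in the mitochondrial share of counts (1.07% to 1.31% against 0.633% to 0.961%). In ImCD8 the groups overlapped in all 4 measures. These measures cannot be told apart from genotype in ImCD4, and their part in the differences was not tested.

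In each population both targeted genes had lower levels in all 3 dKO libraries than in the 3 controls. Zfp148 (chromosome 16, 33380836 to 33504363, plus strand) had 177, 182 and 182 CPM in control ImCD4 and 67.7, 68.9 and 63.0 CPM in dKO ImCD4. In ImCD8 the control libraries had 162, 171 and 163 CPM and the dKO libraries 45.6, 62.8 and 56.3 CPM. It fell by 1.44 ± 0.09 in ImCD4 and by 1.59 ± 0.09 in ImCD8 (SE) on the log2 scale, and the difference of 0.15 ± 0.13 did not pass (adjusted p = 0.740). Zfp281 (chromosome 1, 136624901 to 136630053, plus strand) had 457, 441 and 562 CPM in control ImCD4 and 18.4, 16.2 and 21.4 CPM in dKO ImCD4. Its ImCD8 levels were 128, 117 and 112 CPM in control and 14.9, 13.3 and 10.2 CPM in dKO. The control libraries of ImCD4 thus stood far above those of ImCD8, while the dKO libraries of both populations lay between 10.2 and 21.4 CPM. Zfp281 is itself 1 of the 58 genes, with a fall of 4.71 ± 0.13 in ImCD4 and 3.22 ± 0.14 in ImCD8 and a difference of -1.49 ± 0.19 (adjusted p = 0.00170). The sources used here do not name the floxed exons, so remaining counts need not come from intact transcripts. The levels of both genes follow the titles of all 12 libraries.

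A gene was called when its adjusted p in edgeR's quasi-likelihood test was under 0.05. The 58 called genes are 0.433% of those tested. The effect was more positive in ImCD4 for 34 of them (0.254%) and more positive in ImCD8 for 24 (0.179%). The single effects reached many more genes, 1797 in ImCD4 (13.4%) and 822 in ImCD8 (6.14%), 2122 in either, and all 58 are among these 2122. In all, 1336 genes had an unadjusted p under 0.05 in the difference, 769 more positive in ImCD4 and 567 more positive in ImCD8. Called differences had sizes of 0.44 to 3.30 on the log2 scale, with a median of 0.98, and 28 of the 58 were at least 2-fold. The median difference over all genes tested was 0.01. For 27 of the 58 the single effect passed in ImCD4 and not in ImCD8, 20 of them more positive in ImCD4 and 7 more positive in ImCD8. The reverse held for 12, 6 in each direction. Another 12 changed in the same direction in both populations by unequal amounts, and 7 changed in opposite directions. None of the 58 was under 1 CPM in both groups of either population. DESeq2 called 140 genes with all 58 among them, 233 were called without the filter on low counts, and 106, sharing 45 of the 58, were called when the 4 libraries of the third component were left out. With a term for those 4 libraries 200 were called.

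**Figure D1:**
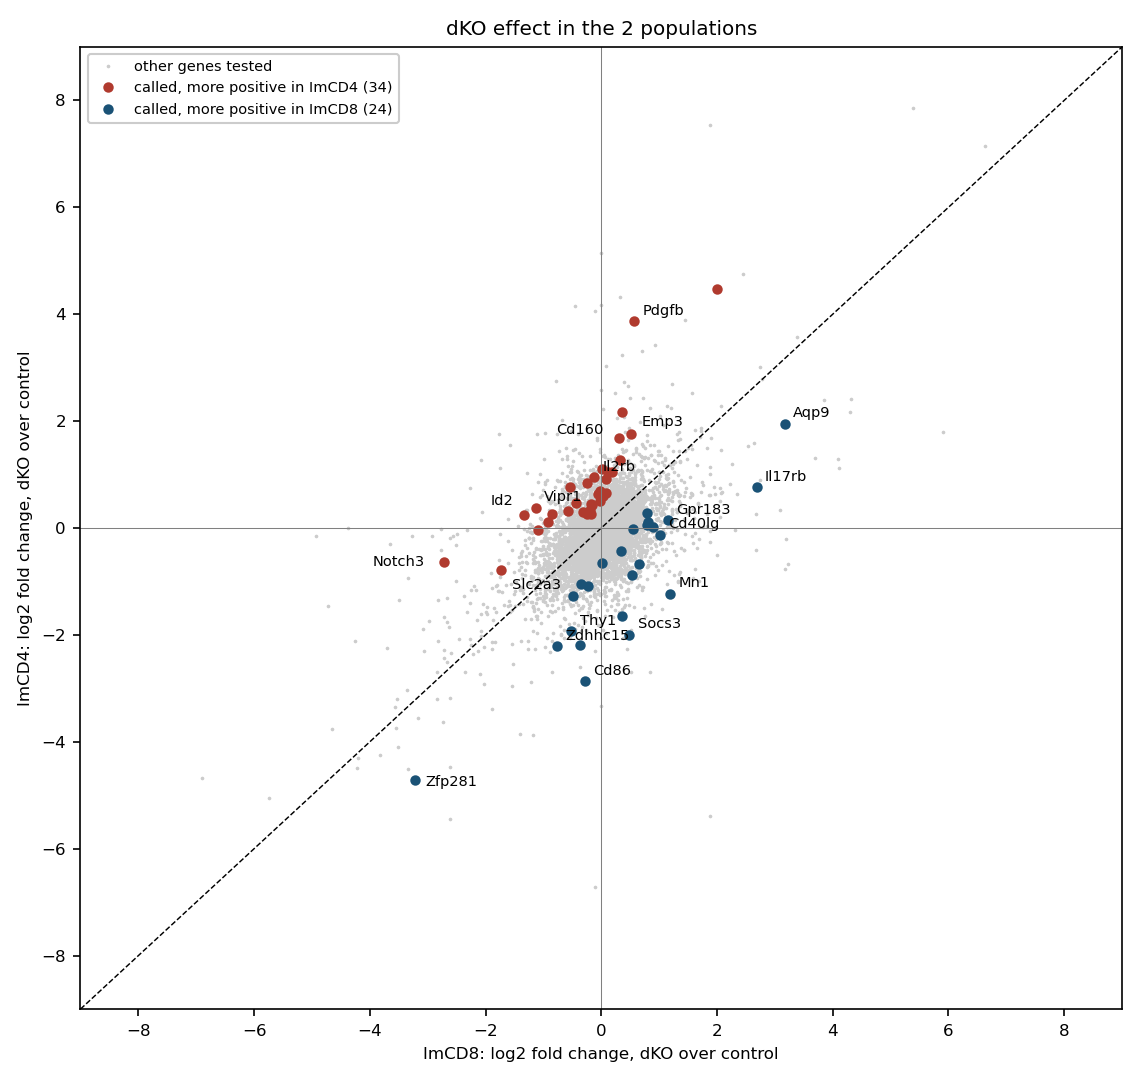
Each point is a gene, with its log2 fold change (dKO over control) in ImCD8 on the x axis and in ImCD4 on the y axis; the dashed line marks equal effects, red points are the 34 genes called as more positive in ImCD4 and blue points the 24 called as more positive in ImCD8. Called genes lie off the dashed line, and most lie near 1 of the 2 zero lines, where the effect in 1 population is small.

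Promoter sequences are shown for 3 called genes, because Zfp281 is known to bind G-rich runs and the share of called promoters that hold such a run can be read directly. The windows run from 250 bases before to 50 bases after the start site, 5′ to 3′ on the gene's strand, from RefSeq on GRCm38.p6. Capitals mark matches to GGGGGAGGG or GGGAGGGG on either strand (reverse complements CCCTCCCCC and CCCCTCCC), and both motifs share letters where they overlap. Zdhhc15 had the smallest p of the named genes, Socs3 had the most matches among the called genes, and Dusp10, which changed in opposite directions, had none.
Zdhhc15 promoter, chrX:104671015-104671314, minus strand: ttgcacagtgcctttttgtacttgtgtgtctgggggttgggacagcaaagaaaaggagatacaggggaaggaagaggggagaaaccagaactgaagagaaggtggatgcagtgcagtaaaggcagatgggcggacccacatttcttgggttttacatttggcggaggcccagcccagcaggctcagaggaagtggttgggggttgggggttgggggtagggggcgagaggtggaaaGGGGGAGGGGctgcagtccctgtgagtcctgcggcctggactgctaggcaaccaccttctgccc
Socs3 promoter, chr11:117969317-117969616, minus strand: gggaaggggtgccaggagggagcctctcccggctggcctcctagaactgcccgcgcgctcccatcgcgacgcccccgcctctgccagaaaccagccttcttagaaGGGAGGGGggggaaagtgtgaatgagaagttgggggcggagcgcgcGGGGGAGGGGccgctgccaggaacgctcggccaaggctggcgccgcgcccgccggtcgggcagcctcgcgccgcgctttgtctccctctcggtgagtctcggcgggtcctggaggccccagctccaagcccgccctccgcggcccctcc
Dusp10 promoter, chr1:184034131-184034430, plus strand: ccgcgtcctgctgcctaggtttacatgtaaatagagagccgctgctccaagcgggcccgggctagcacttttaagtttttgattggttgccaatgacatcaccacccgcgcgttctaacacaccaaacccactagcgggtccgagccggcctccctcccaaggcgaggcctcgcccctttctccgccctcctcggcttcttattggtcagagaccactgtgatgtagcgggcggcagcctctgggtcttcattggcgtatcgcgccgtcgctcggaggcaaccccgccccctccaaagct
A promoter entry matched 42 of the 58 called and 8271 of the 13383 tested genes. GGGGGAGGG was found for 4 of the 42 (9.52%), against 7.71% of all 8271, and GGGAGGGG for 10 (23.8%), against 18.5%. Among called genes more positive in ImCD8 the counts were 3 (18.8%) and 6 (37.5%) of 16, and among those more positive in ImCD4 they were 1 (3.85%) and 4 (15.4%) of 26. The 6 include the targeted gene Zfp281. A gene with 2 windows was counted when either held the motif, and Aqp9, Ncoa7 and Capn3 held GGGAGGGG in 1 of 2. These counts are small, a match is a run of letters and not a binding site, and no binding was measured here.

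The first group, genes that rose in ImCD4 and whose ImCD8 effect did not pass, included the receptor genes Il2rb and Cd160. Il2rb encodes the beta chain of the interleukin-2 and interleukin-15 receptors (chromosome 15, 78479256 to 78495271, minus strand). Its levels were 36.3, 38.5 and 32.5 CPM in control and 73.0, 67.7 and 67.6 CPM in dKO ImCD4. In ImCD8, where it was far more abundant, they were 448, 447 and 491 CPM in control and 444, 404 and 429 CPM in dKO. Neither pair of groups overlapped, and in ImCD8 the control libraries lay above the dKO libraries, although that effect did not pass. The effects were 0.96 ± 0.08 and -0.12 ± 0.07, and their difference was 1.07 ± 0.11 (adjusted p = 0.000159). Put as a gap between the populations, ImCD8 exceeded ImCD4 by 3.69 ± 0.08 on the log2 scale in control and by 2.62 ± 0.08 in dKO. Cd160 (chromosome 3, 96798763 to 96829351, minus strand), a receptor of cytotoxic cells that binds MHC class I and HVEM, went from 4.47, 5.52 and 4.13 to 16.2, 15.03 and 14.3 CPM in ImCD4. In ImCD8 its levels were 61.7, 53.9 and 53.7 CPM in control and 70.1, 69.3 and 69.7 CPM in dKO. Neither pair of groups overlapped. The effects were 1.69 ± 0.13 in ImCD4 and 0.30 ± 0.09 in ImCD8, and the second narrowly did not pass (adjusted p = 0.0625). The difference was 1.39 ± 0.16 (adjusted p = 0.000667). On the linear scale it has the other sign, with 10.5 CPM gained in ImCD4 and 13.2 CPM gained in ImCD8, from mean control levels of 4.71 ± 0.725 and 56.5 ± 4.58 CPM. In bulk RNA more cells of a type and more RNA per cell cannot be told apart.

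Of 8 tested innate-like and memory-like T cell genes 3 were called, Il2rb, Cd160 and Id2, all more positive in ImCD4, and the median difference of the list was 1.02. That median also rests on Fcer1g and Cxcr3, which had 0 to 3 and 0 to 1 counts in the ImCD4 libraries. Their differences, 0.97 ± 1.39 and 3.52 ± 3.01, are imprecise. The summed level of all 15 listed genes was 711 to 825 CPM in control ImCD4 and 909.5 to 1051 CPM in dKO ImCD4, and 687 to 833 and 628 to 699.9 CPM in ImCD8, with no marker at 0 in all libraries. Id2 supplied most of the ImCD4 sums, on average 696 CPM of the control sum and 824 CPM of the dKO sum. Its own ImCD4 effect of 0.24 ± 0.14 did not pass (adjusted p = 0.279). Il2rb, Cd160 and Cd44 were higher in every dKO ImCD4 library than in every control ImCD4 library. For Cd44 the same held in ImCD8, so its rise was not limited to ImCD4. The highest Cd44 level of any control library was 27.1 CPM (ImCD4) or 28.7 CPM (ImCD8). The lowest of any dKO library was 52.7 CPM (ImCD4) or 58.8 CPM (ImCD8). Zbtb16 reached at most 0.471 CPM and Il4 at most 0.642 CPM in any library, and S100a4 was at 0 in all but control ImCD4 replicate 3. Fcer1g, Cxcr3 and Il18r1 of this list did not pass (adjusted p = 0.864, 0.742 and 0.722). Among 23 tested CD8-lineage and cytotoxic genes Cd160 was called as more positive in ImCD4 and the chemokine gene Ccl4 as more positive in ImCD8, and the median difference was 0.40. The median effect of this list was 0 in ImCD4 and -0.32 in ImCD8. In ImCD8 7 of its genes passed as lower in dKO and 0 as higher, and in ImCD4 3 passed as higher and 2 as lower. The effect of Runx3 was 0.36 ± 0.11 in ImCD4 and -0.04 ± 0.10 in ImCD8, a difference of 0.40 ± 0.14 that did not pass (adjusted p = 0.335). Cst7, an inhibitor of cathepsins in cytotoxic cells, had a difference of 1.67 ± 0.54 (adjusted p = 0.284), from ImCD4 means of 0.332 and 1.43 CPM. Fasl, also near 1 CPM in ImCD4, had a difference of 3.02 ± 1.04 (adjusted p = 0.327). Its effects were 0.74 ± 0.76 in ImCD4 and -2.27 ± 0.70 in ImCD8. The ImCD8 libraries had 15, 7 and 63 Fasl counts in control and 9, 7 and 2 in dKO, so control replicate 3 weighs heavily.

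Uhrf1, which brings the maintenance methyltransferase to newly replicated DNA (chromosome 17, 56303321 to 56323486, plus strand), stood at 38.2, 39.8 and 35.7 CPM in control and 82.5, 83.2 and 77.3 CPM in dKO ImCD4. In ImCD8 the control libraries had 113, 131 and 102 CPM and the dKO libraries 125, 113 and 111 CPM. The gene thus rose in ImCD4 by 1.10 ± 0.09, with no overlap, and measured 0.01 ± 0.09 in ImCD8, where the groups overlapped. The difference was 1.09 ± 0.13 (adjusted p = 0.000748). It was the called member of 17 DNA methylation genes, whose median difference was 0.04. Tet3 and Mbd3 did not pass (adjusted p = 0.314 and 0.556).

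Pdgfb, a growth factor gene (chromosome 15, 79995874 to 80014977, minus strand), showed the largest called difference, 3.30 ± 0.41 (adjusted p = 0.00170). It had 1.53, 1.55 and 2.65 CPM in control and 26.3, 21.7 and 37.2 CPM in dKO ImCD4. The ImCD8 libraries had 6.28, 7.89 and 8.29 CPM in control and 14.7, 11.1 and 7.62 CPM in dKO. The order of the populations was therefore opposite in the 2 genotypes: ImCD8 minus ImCD4 was 1.95 ± 0.33 in control and -1.35 ± 0.24 in dKO. Snrpe, a core protein of the spliceosome, had 168 ± 2.10 and 316 ± 41.9 CPM (SD, n = 3) in control and dKO ImCD4 against 143 ± 11.2 and 151 ± 11.4 CPM in ImCD8. Its difference was 0.83 ± 0.13 (adjusted p = 0.00665). Sh2d3c, an adaptor of integrin and Eph receptor signalling, and Rgs3, which shortens signals of G protein-coupled receptors, rose in ImCD4 by 0.60 ± 0.06 and 0.66 ± 0.07 and measured 0.03 ± 0.07 and 0.08 ± 0.07 in ImCD8. Their differences were 0.58 ± 0.09 (adjusted p = 0.00746) and 0.58 ± 0.10 (adjusted p = 0.0109). For Snrpe, Sh2d3c and Rgs3 the ImCD4 groups did not overlap and the ImCD8 groups did.

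Plekho1 and Emp3 rose in both populations, and more in ImCD4. Plekho1, which binds casein kinase and membrane lipids, went from 59.0, 47.1 and 47.7 to 124, 122 and 126 CPM in ImCD4. It went from 54.2, 49.0 and 57.2 to 70.1, 64.9 and 65.4 CPM in ImCD8. The control levels of both populations overlapped, and every dKO ImCD4 library was above every dKO ImCD8 library, with a difference of 0.96 ± 0.13 (adjusted p = 0.00170). Emp3, a membrane protein of the tetraspan type, had 11.2 ± 2.88 and 37.9 ± 2.39 CPM in ImCD4 and 242 ± 14.4 and 347 ± 36.5 CPM in ImCD8. Its effects were 1.76 ± 0.14 and 0.52 ± 0.11, a difference of 1.24 ± 0.18 (adjusted p = 0.00473) on the log2 scale. In CPM the gain was larger in ImCD8, 105 against 26.7 CPM.

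The second group fell in ImCD4 and less, or not detectably, in ImCD8. Zdhhc15 (chromosome X, 104536969 to 104671064, minus strand), a palmitoyl transferase that attaches a fatty acid to proteins, had 64.8, 62.6 and 74.9 CPM in control and 14.0, 13.2 and 16.5 CPM in dKO ImCD4. Its ImCD8 levels were 82.2, 78.5 and 80.3 CPM in control and 44.8, 48.1 and 48.7 CPM in dKO. It fell in both populations without overlap, by 2.21 ± 0.10 and by 0.77 ± 0.09, and the difference of -1.45 ± 0.13 had an adjusted p of 6.97e-05. The gap between the populations was 0.25 ± 0.09 in control and 1.70 ± 0.10 in dKO. It was the called member of 20 palmitoyl transferase genes, whose median difference was 0.03, and Zdhhc8, Zdhhc18 and Zdhhc3 did not pass (adjusted p = 0.431, 0.539 and 0.589).

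Skil encodes SnoN, which holds back Smad transcription factors downstream of TGF-beta receptors (chromosome 3, 31095058 to 31122577, plus strand). It had 203, 202 and 232 CPM in control and 139.8, 133 and 134 CPM in dKO ImCD4. The ImCD8 libraries had 186, 206 and 188 CPM in control and 198, 194 and 196 CPM in dKO. In controls the populations overlapped, and in dKO every ImCD4 library lay below every ImCD8 library, with a difference of -0.67 ± 0.10 (adjusted p = 0.00449). Skil was called among 20 tested TGF-beta pathway genes with a median difference of 0.02. That list does not hold Eng, a called gene for a coreceptor of TGF-beta ligands. Smad3, Ski and Smad5 had differences of 0.39 ± 0.10, 0.33 ± 0.10 and -0.50 ± 0.17 that did not pass (adjusted p = 0.151, 0.203 and 0.292).

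Cd86 and Thy1 fell in ImCD4 as well. Cd86, a ligand of CD28 and CTLA-4 (chromosome 16, 36603869 to 36666081, minus strand), had 30, 25 and 36 counts in the control and 8, 2 and 4 counts in the dKO ImCD4 libraries. In ImCD8 it had 96, 68 and 123 counts in control and 67, 99 and 87 counts in dKO. The ImCD4 effect was -2.87 ± 0.34, that in ImCD8 was -0.28 ± 0.20, and the difference was -2.58 ± 0.40 (adjusted p = 0.00665), a size that rests on few counts. Thy1, a surface glycoprotein of T cells (chromosome 9, 44043384 to 44048579, plus strand), had 43.7, 41.3 and 32.5 CPM in control and 12.5, 11.01 and 7.16 CPM in dKO ImCD4. In ImCD8 its levels were 158, 162 and 144 CPM in control and 112, 93.0 and 120.0 CPM in dKO. It fell in both, by 1.92 ± 0.17 and 0.52 ± 0.14, with a difference of -1.41 ± 0.22 (adjusted p = 0.0112). In CPM the loss was larger in ImCD8 (-46.4 against -29.0 CPM). Of 28 costimulatory and checkpoint genes Cd160 and the CD40 ligand gene Cd40lg were called, 1 in each direction, with a median difference of 0.07, and Ctla4, Cd226 and Cd200 did not pass (adjusted p = 0.510, 0.497 and 0.507). Cd86 was not on that list.

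Ccr7, the receptor that draws thymocytes to the medulla, had 547, 545 and 731 CPM in control and 278, 269 and 317 CPM in dKO ImCD4. In ImCD8 it had 821, 937 and 967 CPM in control and 755, 761 and 813 CPM in dKO. It fell in ImCD4 by 1.08 ± 0.11, the ImCD8 effect of -0.23 ± 0.11 did not pass although its groups did not overlap, and the difference was -0.85 ± 0.15 (adjusted p = 0.0172). Ccl4, a chemokine gene, had 7.85 ± 1.27 and 1.69 ± 0.473 CPM in ImCD4 and 17.2 ± 4.13 and 13.3 ± 1.02 CPM in ImCD8, a difference of -1.83 ± 0.32 (adjusted p = 0.0136). Als2cl, a relative of the exchange factor alsin, fell by 1.04 ± 0.09 in ImCD4 and by 0.36 ± 0.08 in ImCD8 (difference -0.69 ± 0.12, adjusted p = 0.0134). None of these calls held in every fit that left out a single library. That of Ccr7 was lost without dKO ImCD4 replicate 1 or 2 or control ImCD8 replicate 1 (adjusted p up to 0.0639), that of Ccl4 without dKO ImCD4 replicate 2 (0.0639) and that of Als2cl without control ImCD8 replicate 1 (0.0515). Among 39 mature single-positive and egress genes Ccr7 was called and the median difference was 0.08. Itgb7, Gimap3 and H2-D1 did not pass (adjusted p = 0.139, 0.139 and 0.156).

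**Figure D2:**
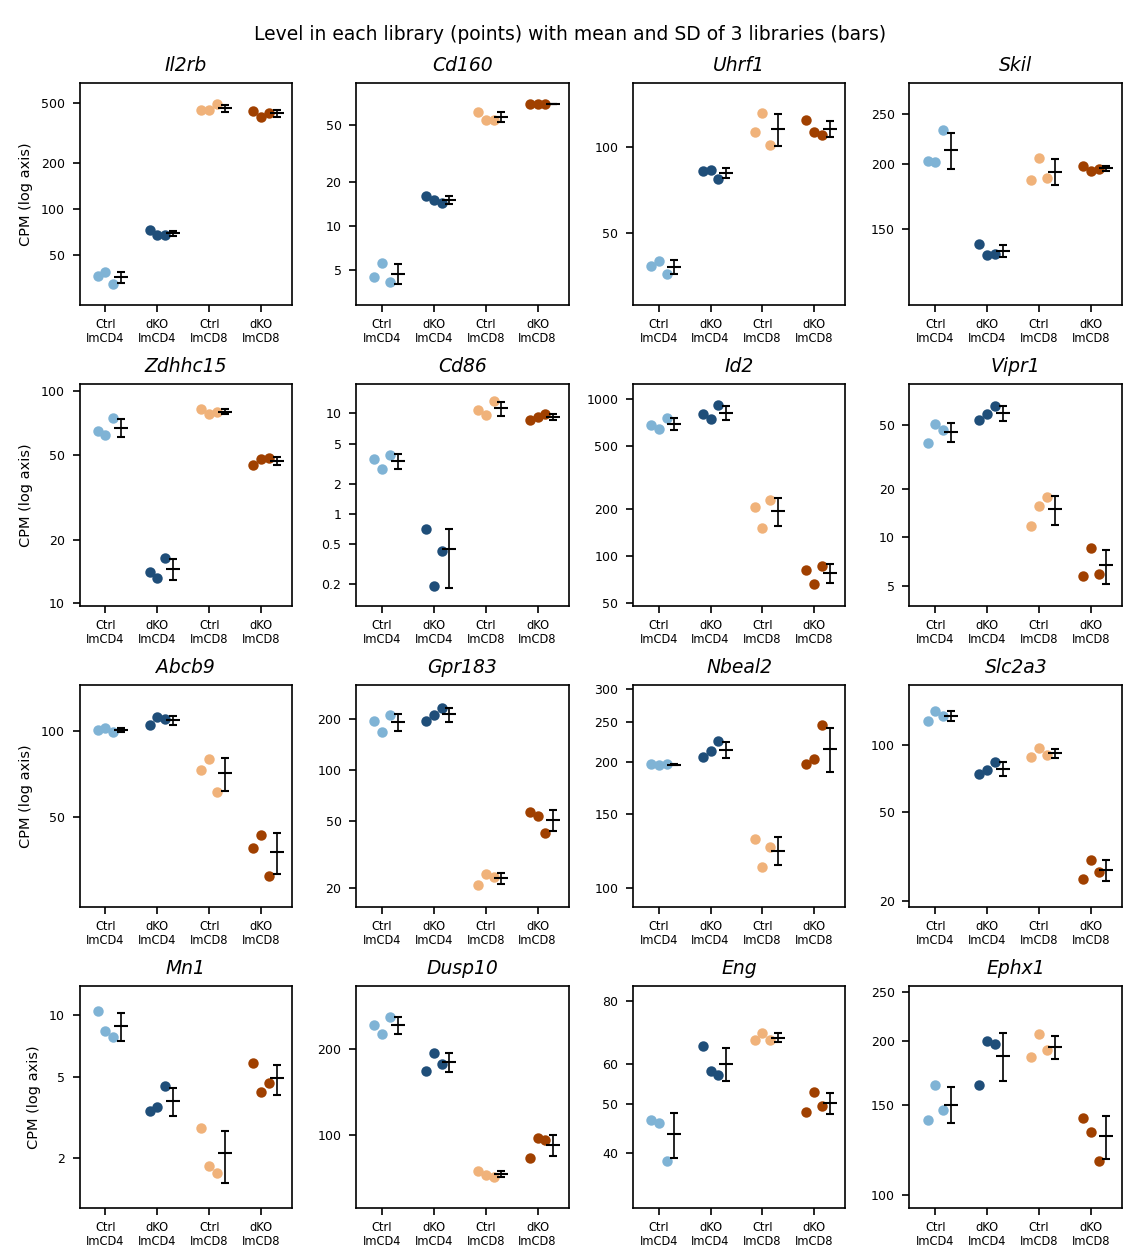
Level of 16 called genes in CPM (log axis) in each library, with points for the 3 libraries of each group and bars for their mean and SD. In the first 6 panels the ImCD4 groups separate most, in the next 6, from Id2 to Slc2a3, the ImCD8 groups, and in the last 4 the groups move in opposite directions.

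Socs3 and Pim1, of the list of cytokine signal transducers and feedback genes, fell in ImCD4 and not detectably in ImCD8. Socs3, an inhibitor of receptors that signal through gp130 (chromosome 11, 117966079 to 117970047, minus strand), had 21, 12 and 13 counts in control and 7, 3 and 3 counts in dKO ImCD4. In ImCD8 it was far more abundant, with 43.3, 35.5 and 43.8 CPM in control and 55.5, 46.7 and 69.9 CPM in dKO. It fell by 1.99 ± 0.46 in ImCD4, the ImCD8 effect was 0.48 ± 0.15 (adjusted p = 0.0767), and the difference was -2.48 ± 0.48 (adjusted p = 0.0308). Pim1, a kinase gene that cytokines induce through STAT factors, had 8.36, 5.08 and 4.77 CPM in control and 1.70, 2.49 and 1.60 CPM in dKO ImCD4. The ImCD8 groups overlapped, at 5.49, 5.63 and 3.19 CPM in control and 7.11, 5.80 and 5.34 CPM in dKO. Its difference was -2.0 ± 0.40 (adjusted p = 0.0364). Socs3 and Pim1 were the called genes of 21 cytokine signal transducers, both in the direction of ImCD8, and the median difference of the list was 0.05. Jak1, Socs5 and Socs1 did not pass (adjusted p = 0.207, 0.365 and 0.586). Neither call held in every fit that left out a single library. Socs3 kept its call in 7 of 12 fits that each left out 1 library, and lost it without control ImCD4 replicate 1, dKO ImCD4 replicate 2 or 3, control ImCD8 replicate 1 or dKO ImCD8 replicate 1, as it did in limma-voom. Pim1 kept its call without control ImCD4 replicate 3, dKO ImCD4 replicate 2 or dKO ImCD8 replicate 3, and lost it without each of the other 9. The highest adjusted p in these fits were 0.135 for Socs3 and 0.116 for Pim1. Of 25 cytokine receptor genes Il2rb and Il17rb were called, 1 in each direction, with a median difference of 0.13. Il4ra had effects of 1.08 ± 0.07 in ImCD4 and 0.84 ± 0.07 in ImCD8, a difference of 0.23 ± 0.10 (adjusted p = 0.481), and Il12rb2 and Il27ra did not pass either (adjusted p = 0.299 and 0.392).

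The third group fell in ImCD8 and not detectably in ImCD4. Id2, which blocks E proteins and so helps to set lymphocyte fate (chromosome 12, 25093799 to 25097140, minus strand), had 206, 151 and 228 CPM in control and 80.8, 65.8 and 86.3 CPM in dKO ImCD8. In ImCD4 its levels were 683, 643 and 764 CPM in control and 804, 753 and 914 CPM in dKO. The ImCD8 groups were apart and the ImCD4 groups overlapped. It fell by 1.33 ± 0.15 in ImCD8, measured 0.24 ± 0.14 in ImCD4, and had a difference of 1.57 ± 0.20 (adjusted p = 0.00305). The lead of ImCD4 over ImCD8 was larger in dKO, with ImCD8 minus ImCD4 at -1.84 ± 0.14 in control and -3.41 ± 0.15 in dKO. Notch3, a Notch receptor of early thymocytes, had 149, 90 and 99 counts in control and 22, 22 and 11 counts in dKO ImCD8. In ImCD4 it had 22, 45 and 33 counts in control and 25, 25 and 24 counts in dKO. It fell by 2.72 ± 0.28 in ImCD8, the ImCD4 effect of -0.63 ± 0.30 did not pass (adjusted p = 0.190), and the difference was 2.10 ± 0.42 (adjusted p = 0.0342). Notch3 kept its call without control ImCD4 replicate 2, control ImCD8 replicate 3 or dKO ImCD8 replicate 1. It was lost without each of the other 9 libraries (adjusted p up to 0.0984), without the 4 libraries of the third component (0.0655) and in limma-voom (0.0598).

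Id2 and Notch3 were the called members of 19 tested genes of E proteins, Id factors and the Notch pathway, and the median difference of that list was -0.10. Id3, a second E protein inhibitor, rose in ImCD8 by 0.48 ± 0.09 and measured 0.10 ± 0.10 in ImCD4, with a difference of -0.38 ± 0.13 that did not pass (adjusted p = 0.327). The Notch modifier gene Mfng and the Notch target gene Hes5 had differences of 0.57 ± 0.18 and 1.28 ± 0.44 that did not pass (adjusted p = 0.261 and 0.326).

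Abcb9, Vipr1 and Etv5 also fell in ImCD8. Abcb9, a lysosomal peptide transporter (chromosome 5, 124061530 to 124095798, minus strand), had 73.2, 79.9 and 61.1 CPM in control and 38.7, 43.1 and 30.9 CPM in dKO ImCD8. In ImCD4 it had 99.7 to 103 CPM (control) and 105 to 113 CPM (dKO), where the effect of 0.11 ± 0.10 did not pass, and the difference was 1.03 ± 0.15 (adjusted p = 0.00449). Vipr1, a receptor for vasoactive intestinal peptide (chromosome 9, 121642716 to 121672954, plus strand), had 11.8, 15.6 and 17.9 CPM in control and 5.72, 8.65 and 5.91 CPM in dKO ImCD8. In ImCD4 it had 39.1, 51.4 and 46.8 CPM in control and 53.9, 59.0 and 66.4 CPM in dKO. The groups moved apart in opposite directions, but the ImCD4 effect of 0.38 ± 0.15 did not pass (adjusted p = 0.102). The difference was 1.52 ± 0.24 (adjusted p = 0.00967) and was lost without the 4 libraries of the third component (0.0758). Etv5, an ETS transcription factor gene, fell from 11.3 ± 0.846 to 6.23 ± 1.66 CPM in ImCD8 and had 73.0 ± 5.91 and 87.6 ± 5.91 CPM in control and dKO ImCD4. Its difference of 1.12 ± 0.20 (adjusted p = 0.0144) was lost without control ImCD8 replicate 1 (0.0604).

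Slc2a3, which encodes the glucose transporter GLUT3 (chromosome 6, 122727809 to 122801640, minus strand), fell in both populations and further in ImCD8. It had 128, 141 and 134 CPM in control and 73.7, 76.8 and 83.9 CPM in dKO ImCD4. In ImCD8 it had 88.3, 96.8 and 90.3 CPM in control and 25.1, 30.7 and 26.9 CPM in dKO. Neither pair of groups overlapped, the falls were 0.78 ± 0.08 and 1.73 ± 0.09, and the difference was 0.94 ± 0.12 (adjusted p = 0.00143). It was the called gene of 28 glycolysis and glucose transport genes, whose median difference was 0.11, and 8 of them had an unadjusted p under 0.05, all more positive in ImCD4. Eno3 fell in ImCD8 by 1.03 ± 0.15 and measured -0.24 ± 0.15 in ImCD4, and its difference of 0.79 ± 0.21 did not pass (adjusted p = 0.147). Pfkfb3 and Pdk3 did not pass either (adjusted p = 0.187 and 0.286).

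The fourth group rose in ImCD8, with an ImCD4 effect that did not pass. Gpr183, a receptor for oxysterols that guides lymphocyte migration (chromosome 14, 121952551 to 121965195, minus strand), had 21.1, 24.4 and 23.5 CPM in control and 56.6, 53.3 and 42.8 CPM in dKO ImCD8. The ImCD4 libraries, at 195, 168 and 212 CPM in control and 194, 212 and 234 CPM in dKO, overlapped. It rose in ImCD8 by 1.15 ± 0.12, measured 0.15 ± 0.10 in ImCD4, and had a difference of -0.99 ± 0.16 (adjusted p = 0.00976). Nbeal2, a BEACH-domain protein needed for platelet granules (chromosome 9, 110624789 to 110654161, minus strand), had 131, 112 and 125 CPM in control and 198, 203 and 245 CPM in dKO ImCD8. In ImCD4 it had 198, 197 and 198 CPM in control and 206, 213 and 225 CPM in dKO. The lower ImCD8 level of the controls was gone in dKO, with ImCD8 minus ImCD4 at -0.68 ± 0.08 and 0.01 ± 0.08, and the difference was -0.69 ± 0.12 (adjusted p = 0.0129).

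Cd40lg, the CD40 ligand of helper T cells, had 3.14, 5.07 and 3.19 CPM in control and 8.51, 7.91 and 6.03 CPM in dKO ImCD8, against 244 to 296 and 249 to 258 CPM in ImCD4. Its rise of 1.01 ± 0.19 in ImCD8 thus started from a level far below that of ImCD4. The difference was -1.13 ± 0.22 (adjusted p = 0.0265). It was the called member of 13 CD4-lineage genes, whose median difference was -0.03, and Cd4, Lef1 and Ctla4 did not pass (adjusted p = 0.504, 0.379 and 0.510). Rgs2, which curbs G protein signals and is induced by T cell receptor signals, had 22.0, 20.99 and 20.8 CPM in control and 35.9, 37.8 and 44.6 CPM in dKO ImCD8. In ImCD4 the groups overlapped, at 35.2 to 40.6 and 34.1 to 46.1 CPM. Its difference was -0.87 ± 0.17 (adjusted p = 0.0323). Both calls were sensitive to single libraries. That of Cd40lg remained without control ImCD4 replicate 1, dKO ImCD4 replicate 3, control ImCD8 replicate 2 or dKO ImCD8 replicate 3, and was lost without each of the other 8 (adjusted p up to 0.120) and in limma-voom (0.0902). That of Rgs2 remained without control or dKO ImCD4 replicate 3 or dKO ImCD8 replicate 1, and was lost without each of the other 9 (up to 0.100).

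Aqp9 and Il17rb rose in both populations and further in ImCD8. Aqp9, a channel for water and glycerol (chromosome 9, 71110659 to 71168682, minus strand), had 21.2, 24.2 and 20.8 CPM in control and 84.3, 87.2 and 84.9 CPM in dKO ImCD4. It had 2.69, 2.54 and 2.23 CPM in control and 22.0, 25.9 and 19.0 CPM in dKO ImCD8. The dKO ImCD8 level thus reached the range of control ImCD4, and the difference was -1.21 ± 0.20 (adjusted p = 0.00976). Il17rb, a chain of the interleukin-25 receptor, had 68.9, 80.3 and 65.9 CPM in control and 124, 113 and 128 CPM in dKO ImCD4. It had 4.71, 4.51 and 1.59 CPM in control and 23.8, 26.6 and 17.6 CPM in dKO ImCD8, a difference of -1.92 ± 0.32 (adjusted p = 0.0161). For both genes the gain in CPM was larger in ImCD4, 63.4 against 19.8 CPM for Aqp9 and 50.1 against 19.1 CPM for Il17rb. The call of Aqp9 was lost without control ImCD8 replicate 3 (adjusted p = 0.0557), and that of Il17rb without dKO ImCD4 replicate 2 or dKO ImCD8 replicate 1 or 2 (up to 0.0556).

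Il17rb and Etv5 are also on the list of gamma-delta T cell genes, of which 10 were tested, and they were called in opposite directions. The median difference of the list was -0.22. Sox13, a transcription factor gene of these cells, rose in ImCD4 by 3.42 ± 0.17 and measured 0.92 ± 0.46 in ImCD8, and its difference of 2.50 ± 0.55 did not pass (adjusted p = 0.0891). It passed in DESeq2 (adjusted p = 7.42e-07). Tcrg-C1 and Cd163l1 did not pass (adjusted p = 0.179 and 0.558). The summed level of the 13 listed genes was 665 to 717 CPM in control ImCD4 and 933 to 1021 CPM in dKO ImCD4, and 248 to 312 and 243 to 392 CPM in ImCD8. The 9 regulatory T cell genes had no called member in edgeR, 4 at an unadjusted p under 0.05, and a median difference of 0.05, and DESeq2 called 1 and limma-voom 0 of them. Their summed level was 348 to 382 CPM in control ImCD4 and 441 to 576 CPM in dKO ImCD4, and 353 to 479 and 291 to 439 CPM in ImCD8. Sox4 was the largest member of the gamma-delta sum in ImCD4, and its control and dKO ranges overlapped (485 to 525 and 465 to 603 CPM). Mean ImCD4 levels went from 20.3 to 218 CPM for Sox13 and from 71.7 to 122 CPM for Il17rb. Of the regulatory T cell genes, Gpr83 went from 114 to 207, Tnfrsf9 from 88.6 to 144 and Capg from 40.6 to 22.4 CPM. Foxp3 reached at most 0.714 CPM in ImCD4. No marker of either list was at 0 in all libraries, and the part of such cells in the differences was not tested.

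Genes that passed in both populations in opposite directions numbered 7, 4 higher in dKO ImCD4 and lower in dKO ImCD8 (Eng, Ephx1, Zyx and Mcm3) and 3 the other way (Mn1, Dusp10 and Capn3). Mn1, a transcriptional coregulator known from myeloid leukaemia (chromosome 5, 111417362 to 111457033, plus strand), had 10.5, 8.40 and 7.84 CPM in control and 3.39, 3.54 and 4.49 CPM in dKO ImCD4. It had 2.80, 1.83 and 1.70 CPM in control and 5.84, 4.23 and 4.66 CPM in dKO ImCD8. The controls of the populations were apart by -2.06 ± 0.24 (ImCD8 minus ImCD4), and in dKO this gap was 0.36 ± 0.23, with the ranges overlapping. The difference was -2.42 ± 0.33 (adjusted p = 0.00258). Dusp10, a phosphatase that switches off p38 and JNK kinases (chromosome 1, 184013302 to 184075636, plus strand), had 243, 227 and 261 CPM in control and 168, 195 and 177 CPM in dKO ImCD4. Its ImCD8 levels were 74.4, 72.0 and 70.8 CPM in control and 82.6, 97.3 and 95.6 CPM in dKO. It fell by 0.44 ± 0.08 and rose by 0.34 ± 0.08, a difference of -0.78 ± 0.12 (adjusted p = 0.00449).

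Dusp10 was the called gene of 25 MAPK and phosphatase genes, whose median difference was -0.01. Dusp2 rose in both populations, by 1.03 ± 0.13 in ImCD4 and 0.49 ± 0.13 in ImCD8, and Dusp5 fell in ImCD4 by 0.64 ± 0.10 and measured -0.25 ± 0.10 in ImCD8. Their differences did not pass (adjusted p = 0.292 and 0.330), nor did that of Rasa3 (0.335).

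Eng encodes endoglin, a coreceptor for TGF-beta ligands (chromosome 2, 32646595 to 32682669, plus strand). It had 46.4, 45.9 and 38.5 CPM in control and 65.2, 58.0 and 57.0 CPM in dKO ImCD4. It had 67.0, 69.2 and 66.9 CPM in control and 48.3, 52.8 and 49.5 CPM in dKO ImCD8. The rise of 0.47 ± 0.09 and the fall of 0.43 ± 0.09 gave a difference of 0.89 ± 0.12 (adjusted p = 0.00258), and both pairs of groups were apart. Ephx1, the microsomal epoxide hydrolase (chromosome 1, 180976210 to 181020904, minus strand), moved in the same directions, with 150.5 ± 12.1 and 187 ± 20.05 CPM in control and dKO ImCD4 and 195 ± 10.1 and 130.4 ± 12.6 CPM in ImCD8. Its difference was 0.90 ± 0.13 (adjusted p = 0.00435). The calls of Mn1, Dusp10, Eng and Ephx1 remained in all 12 fits that each left out 1 library.

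Zyx and Capn3 were called less firmly. Zyx, a protein of focal adhesions, had 181 ± 8.25 and 216 ± 16.1 CPM in ImCD4 and 367 ± 15.2 and 311 ± 2.94 CPM in ImCD8, a difference of 0.50 ± 0.10 (adjusted p = 0.0327). Capn3, a calpain protease, had 9.48 ± 2.58 and 5.94 ± 1.06 CPM in ImCD4, where the groups overlapped, and 16.3 ± 2.45 and 25.6 ± 1.05 CPM in ImCD8, a difference of -1.32 ± 0.26 (adjusted p = 0.0342). Zyx remained called without dKO ImCD4 replicate 1 or control ImCD8 replicate 1, and Capn3 without control ImCD4 replicate 3, dKO ImCD4 replicate 1 or control ImCD8 replicate 2. Without each of the other libraries the calls were lost (adjusted p up to 0.111 for Zyx and 0.111 for Capn3). Spats2 fell in ImCD4 by 0.89 ± 0.15 while its ImCD8 effect of 0.53 ± 0.16 had an adjusted p of 0.0642, and its difference of -1.42 ± 0.22 was called in all 12 such fits (adjusted p = 0.00665 with all libraries).

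**Figure D3:**
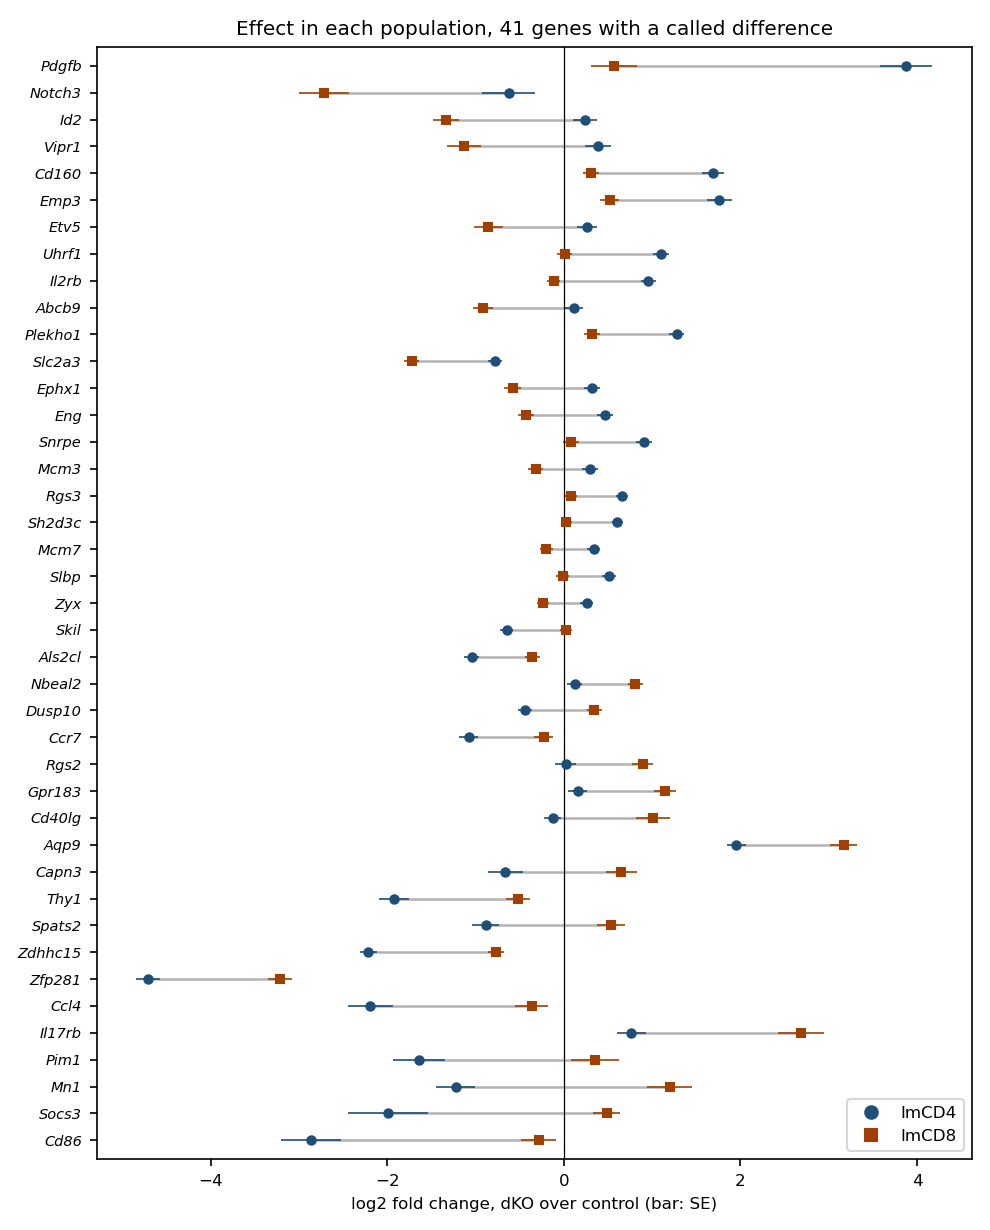
Log2 fold change, dKO over control, in ImCD4 (blue circles) and ImCD8 (brown squares) for 41 called genes, ordered by their difference, with bars for the SE. Pdgfb is at the top with the largest positive difference, Cd86 is at the bottom with the largest negative difference, and for Eng, Ephx1, Zyx, Mcm3, Mn1, Dusp10 and Capn3 both effects passed on opposite sides of zero.

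Most genes of DNA replication had a more positive effect in ImCD4 than in ImCD8. Of 59 tested, 3 were called, Mcm7, Mcm3 and Slbp, all more positive in ImCD4, and 52 had a difference above 0. Their median difference was 0.36, from a median effect of 0.18 in ImCD4 and of -0.17 in ImCD8. For all genes tested 51.7% were above 0 and the median was 0.01. At an unadjusted p under 0.05 there were 21 of the 59, all more positive in ImCD4. Mcm7, a subunit of the replicative helicase, had 90.3, 96.5 and 93.8 CPM in control and 112, 125 and 118 CPM in dKO ImCD4. It had 209.7, 241 and 219 CPM in control and 206, 196 and 181 CPM in dKO ImCD8, and neither pair of groups overlapped. Mcm3, another subunit, rose by 0.30 ± 0.09 in ImCD4 and fell by 0.32 ± 0.08 in ImCD8, from 219 ± 13.3 to 175 ± 14.2 CPM. Slbp, which binds the stem-loop of histone messages, went from 44.9 ± 0.912 to 63.9 ± 6.20 CPM in ImCD4 and had 139 ± 4.14 and 138 ± 4.10 CPM in ImCD8. Their differences were 0.54 ± 0.11, 0.62 ± 0.12 and 0.53 ± 0.11 (adjusted p = 0.0327, 0.0342 and 0.0342).

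The 3 replication calls rest on all libraries together. That of Mcm7 remained without dKO ImCD4 replicate 1, control ImCD8 replicate 1 or dKO ImCD8 replicate 1, that of Mcm3 without dKO ImCD4 replicate 1 or dKO ImCD8 replicate 3, and that of Slbp without dKO ImCD4 replicate 3 or dKO ImCD8 replicate 3. Without each other library they were lost (adjusted p up to 0.112, 0.112 and 0.114). Mcm2, Pold1 and Mcm5 lay just outside the threshold, with differences of 0.49 ± 0.10, 0.47 ± 0.10 and 0.52 ± 0.12 (adjusted p = 0.0545, 0.0702 and 0.0788), and DESeq2 called 8 genes of the list. Without the 4 libraries of the third component 3 genes of the list were called, and with a term for them 8.

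Genes of mitosis and cytokinesis had a larger median difference, but none of the 53 tested was called by edgeR, and 5 had an unadjusted p under 0.05, all more positive in ImCD4. DESeq2 and limma-voom also called 0. A difference above 0 was found for 51 of them, with a median of 0.78, from a median effect of 0.27 in ImCD4 and of -0.47 in ImCD8. Genes of this list and of the replication list can move together across libraries. Their counts above 0 are therefore not counts of independent observations. Kif20a, Incenp and Cdca2 came closest, with differences of 1.40 ± 0.46, 0.61 ± 0.21 and 1.03 ± 0.36 (adjusted p = 0.304, 0.313 and 0.327). The mean log2 CPM of the list was lowest in replicate 3 of every group, at 1.04 against 1.63 and 1.73 in control ImCD4, 1.03 against 1.86 and 2.12 in dKO ImCD4, 3.31 against 4.36 and 4.50 in control ImCD8 and 3.24 against 3.89 and 3.93 in dKO ImCD8. Those are the 4 libraries apart on the third component. Without them 6 of 54 tested genes were called, all more positive in ImCD4, and the median difference was 0.88. With a term for them, which was itself taken from these counts, 3 were called. Of 16 G1 cyclin, kinase and inhibitor genes none was called, the median difference was 0.11, and Cdkn1b, Rb1 and E2f4 did not pass (adjusted p = 0.327, 0.407 and 0.510). That list had 2 genes with an unadjusted p under 0.05, and DESeq2 and limma-voom called 0 of it.

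**Figure D4:**
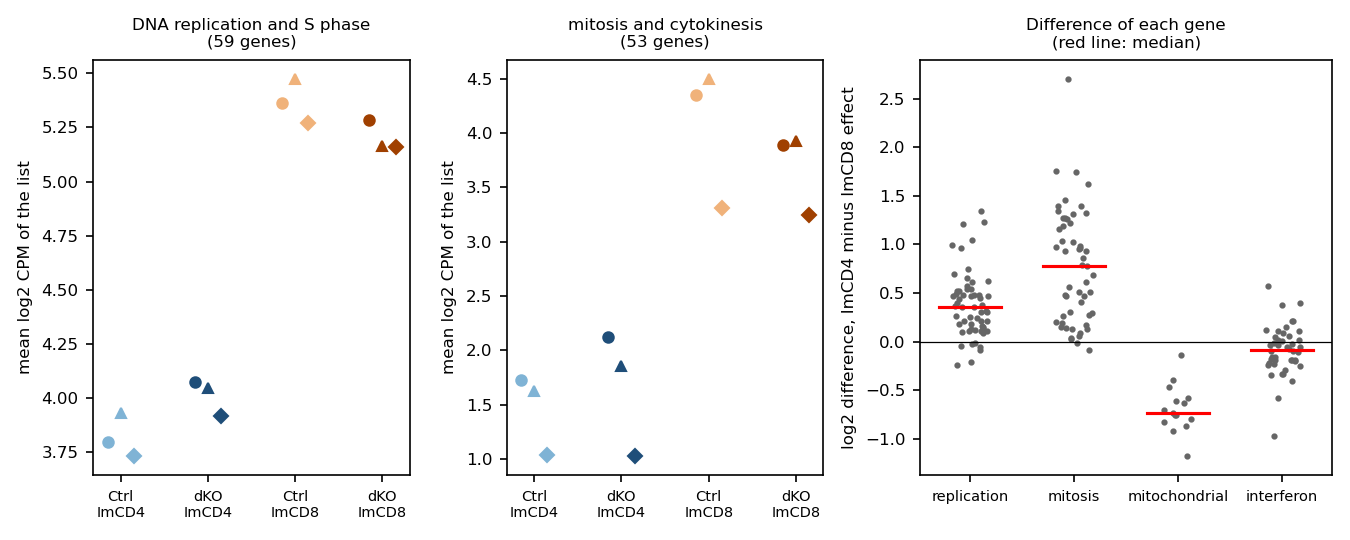
Mean log2 CPM of the replication and mitosis lists in each library (left and middle; circle, triangle and diamond stand for replicates 1, 2 and 3 of each group), and the difference of each gene of 4 lists with its median as a red line (right). The mitosis list is lowest in replicate 3 of each group, the 2 cell cycle lists have medians of 0.36 and 0.78, and all 15 mitochondrial genes lie below 0.

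All 15 mitochondrially encoded genes had a difference below 0, with a median of -0.74 from median effects of -0.47 in ImCD4 and 0.24 in ImCD8. None was called by edgeR, 12 had an unadjusted p under 0.05, all more positive in ImCD8, DESeq2 called 2 and limma-voom 0. The gene with the smallest p was mt-Co2, a subunit of cytochrome oxidase, at 68.3 ± 6.87 and 48.2 ± 8.38 CPM in control and dKO ImCD4 and 66.6 ± 11.3 and 83.6 ± 7.54 CPM in ImCD8. Its difference was -0.83 ± 0.19 (adjusted p = 0.101), and mt-Rnr1 and mt-Atp6 had -0.92 ± 0.25 and -0.47 ± 0.15 (adjusted p = 0.199 and 0.277). These genes are transcribed together from 1 short genome and are not independent of each other, and their share of counts is among the library measures that separate the ImCD4 groups.

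Other pathways of thymocyte selection held few or no called genes, and in the lists with none DESeq2 and limma-voom called 0 too. Of 36 T cell receptor complex and proximal signalling genes none was called, the median difference was -0.02, and 6 had an unadjusted p under 0.05. Cd5, which dampens receptor signals, fell in ImCD4 by 0.73 ± 0.14 and measured -0.24 ± 0.14 in ImCD8, but its difference of -0.49 ± 0.19 did not pass (adjusted p = 0.410), and neither did those of Grap2 and Cd3g (0.311 and 0.466). Of 36 genes induced early by T cell receptor signals Rgs2 was called, the median difference was 0.04, and Ier2, Fosl2 and Fosb did not pass (adjusted p = 0.257, 0.407 and 0.501). Of 44 interferon response genes none was called and 3 had an unadjusted p under 0.05, with a median difference of -0.08. Irf1 fell in ImCD4 and Irf7 rose in ImCD8, with differences of -0.40 ± 0.12 and -0.33 ± 0.12 that did not pass (adjusted p = 0.216 and 0.352), and Irf9 did not pass either (0.450). Of 19 genes of double-positive thymocytes none was called and 2 had an unadjusted p under 0.05. Their median difference was -0.19, and Dntt rose in both populations, by 0.79 ± 0.15 and 1.26 ± 0.15 (difference -0.47 ± 0.21, adjusted p = 0.487).

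Chromatin, adhesion, survival, cholesterol and Klf genes had no called member in edgeR, and limma-voom called 0 in each of these lists, while DESeq2 called 3 adhesion genes, 1 Klf gene and 0 in the other 3 lists. Of 25 NuRD and Polycomb genes 4 had an unadjusted p under 0.05 and the median difference was 0.11. Chd3, a NuRD remodeller, fell steeply in both populations, by 3.76 ± 0.21 in ImCD4 and 4.65 ± 0.24 in ImCD8, and its difference of 0.89 ± 0.32 did not pass (adjusted p = 0.365), as for Rbbp7 and Jarid2 (0.327 and 0.327). Of 18 integrin and adhesion genes 4 had an unadjusted p under 0.05, with a median of 0.05. Selplg, the P-selectin ligand, came closest with -0.64 ± 0.15 (adjusted p = 0.0909), and DESeq2 called it (0.00774). Among 25 survival and death genes 6 had an unadjusted p under 0.05 (median -0.02), and Fas and Casp8 did not pass (adjusted p = 0.216 and 0.292). Of 29 cholesterol synthesis genes 2 had an unadjusted p under 0.05 (median 0.05), and Fasn and Insig1 did not pass (adjusted p = 0.216 and 0.735). Of 20 Klf and Sp genes 3 had an unadjusted p under 0.05 (median 0.02). Klf2, which drives exit from the thymus, rose in ImCD4 by 0.92 ± 0.14 and measured 0.25 ± 0.12 in ImCD8, a difference of 0.67 ± 0.19 that did not pass (adjusted p = 0.183), although DESeq2 called it (0.0483).

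Outside the rule for named genes, and chosen after their values were seen, are the other 17 called genes. The smallest p of all belonged to RP23-302C16.2, a clone name with no entry in the reference used. It had 5.18, 6.63 and 5.62 CPM in control and 137, 118 and 135 CPM in dKO ImCD4. It had 9.19, 6.48 and 6.38 CPM in control and 29.0, 27.4 and 32.4 CPM in dKO ImCD8. The rises of 4.48 ± 0.14 and 2.0 ± 0.14 differed by 2.48 ± 0.20 (adjusted p = 2.58e-05), and the control and dKO libraries were apart in both populations. Of the other 16, Atp1b1, Rgcc, Emilin1, Cd7, Mthfd1l, Myo1e, Chst15, Hvcn1, Tbc1d31, Ostf1, Lmnb1 and Cmss1 were more positive in ImCD4, and Tbxa2r, H2-T24, Ncoa7 and Sypl more positive in ImCD8. Among these, Rgcc, a regulator of the cell cycle, rose in ImCD4 from 102 ± 21.02 to 211 ± 13.2 CPM and had 635 ± 51.9 and 684 ± 34.6 CPM in ImCD8 (difference 0.94 ± 0.16, adjusted p = 0.0134). Cd7, a surface protein of T cells and NK cells, rose in ImCD4 from 14.2 ± 1.98 to 22.9 ± 0.812 CPM and had 187 ± 1.87 and 185 ± 10.1 CPM in ImCD8 (difference 0.71 ± 0.12, adjusted p = 0.0134), a call lost without dKO ImCD4 replicate 1 (0.0507). Tbxa2r, the thromboxane receptor, fell by 1.26 ± 0.10 in ImCD4 and by 0.49 ± 0.10 in ImCD8 (difference -0.78 ± 0.14, adjusted p = 0.0207). It kept its call in 4 of the 12 fits, those without control ImCD4 replicate 3, dKO ImCD4 replicate 2, control ImCD8 replicate 2 or dKO ImCD8 replicate 3, and the adjusted p was up to 0.0724 in the other 8.

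Markers of other cells were counted in the same libraries. The 14 B cell markers summed to 116 to 144 CPM in control ImCD4 and 132 to 165 CPM in dKO ImCD4, and to 366 to 441 and 429 to 535 CPM in ImCD8. The 21 myeloid and dendritic markers summed to 136 to 148 and 138 to 142 CPM in ImCD4 and to 197 to 219.7 and 195 to 244 CPM in ImCD8, with Clec9a, Mpo, Elane and S100a9 at 0 in every library. The 12 erythroid and platelet markers summed to 6.19 to 19.5 and 17.4 to 28.8 CPM in ImCD4 and to 43.6 to 50.9 and 50.7 to 85.6 CPM in ImCD8, with Ppbp at 0. The 18 thymic epithelial and stromal markers summed to 229.5 to 259.8 and 202 to 233 CPM in ImCD4 and to 280.4 to 306 and 278 to 304 CPM in ImCD8. None of the 5, 7, 4 and 6 tested members of these lists was called by edgeR in the difference, with 0, 1, 1 and 0 at an unadjusted p under 0.05 and medians of -0.01, -0.18, 0.69 and -0.19, and DESeq2 and limma-voom called 0 of them. The part of such cells in the called differences was not tested.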

How the data were processed

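RNA was sequenced from 12 libraries of sorted mouse thymocytes, made with an RNeasy micro kit and a SMARTer low-input kit per the labels' protocols. Per the submitters' processing notes, the authors' tools were cutadapt 1.18, STAR 2.6.1 and HTSeq, and the build was mm10. The authors deposited raw counts by gene symbol, with no normalization. Neither the annotation nor the strand setting is given in the sources used here, and genes that overlap or lie antisense may share reads. Each table also held 5 summary rows, left out of totals and tests. Reads outside any gene were 10.5% to 16.4% and ambiguous reads 5.37% to 5.82% of the tallied reads.

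The tests used edgeR 4.0.16 in R 4.3.3. The filter was filterByExpr (minimum count 10, minimum total 15), libraries were scaled by trimmed means (TMM), and all 12 libraries entered 1 quasi-likelihood fit (robust, a mean for each of the 4 groups, 8 residual degrees of freedom). The difference was (dKO ImCD4 minus control ImCD4) minus (dKO ImCD8 minus control ImCD8). All tests are two-sided, with p-values adjusted (Benjamini-Hochberg) across the 13383 genes tested, and the threshold was 0.05. The code was tested on simulated counts. Replicate numbers follow the order of the records and were not used as pairs. Within groups, any 2 libraries differed beyond counting noise (chi-square over degrees of freedom of 3.84 or more), and each counts as 1 sample.

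Named genes are the 15 with the smallest p in each direction with at least 5 CPM in a group, leaving out sex-linked markers, receptor segments, pseudogenes and clone or predicted names. To these were added the targeted genes, called genes with opposite effects, called members of 33 gene lists and up to 3 members of each list that did not pass. The members, lists and rule were chosen with earlier results of these data known. Alternatives were RLE size factors, library size only, DESeq2 1.42.0, limma-voom (limma 3.58.1) with quality weights, no robust settings, no filter, over 5 CPM in 3 libraries, a 2-fold minimum, each library left out, and the 4 libraries apart on the third component left out or given a term. The difference of CPM changes was added after the data were seen. Gene positions are from GENCODE M21, on GRCm38 as mm10, in which 58 of 59 called and targeted genes had an entry. Promoters are from RefSeq on GRCm38.p6.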

Additional observations from a re-analysis of the deposited data

Results flagged for a closer look

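For the 41 named genes below the test of the difference itself passed the threshold of 0.05, which does not settle each gene on its own. Pim1, Notch3 and Rgs2, for example, each kept the call in only 3 of the fits that left out a single library. Zfp281 is a targeted gene, so its value is not read as a response to the deletion. Its gap between the populations, ImCD8 minus ImCD4, was -2.03 ± 0.12 in control and -0.54 ± 0.15 in dKO. Its control means were 486 CPM (ImCD4) and 119 CPM (ImCD8), and its dKO means 18.6 and 12.8 CPM. Values are the log2 difference of the effects, ImCD4 minus ImCD8. More positive in ImCD4 were Pdgfb 3.30, Notch3 2.10, Id2 1.57, Vipr1 1.52, Cd160 1.39, Emp3 1.24, Etv5 1.12, Uhrf1 1.09, Il2rb 1.07, Abcb9 1.03, Plekho1 0.96, Slc2a3 0.94, Ephx1 0.90, Eng 0.89, Snrpe 0.83, Mcm3 0.62, Sh2d3c 0.58, Rgs3 0.58, Mcm7 0.54, Slbp 0.53 and Zyx 0.50. More positive in ImCD8 were Cd86 -2.58, Socs3 -2.48, Mn1 -2.42, Pim1 -2.0, Il17rb -1.92, Ccl4 -1.83, Zfp281 -1.49, Zdhhc15 -1.45, Spats2 -1.42, Thy1 -1.41, Capn3 -1.32, Aqp9 -1.21, Cd40lg -1.13, Gpr183 -0.99, Rgs2 -0.87, Ccr7 -0.85, Dusp10 -0.78, Nbeal2 -0.69, Als2cl -0.69 and Skil -0.67. The genes with the most positive value, Pdgfb and Notch3, differ in kind: Pdgfb rose in ImCD4, and Notch3 fell in ImCD8. At the other end, Cd86 and Socs3 fell in ImCD4 from low levels.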

How the results depend on the processing

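The count of 58 genes was 140 with DESeq2, 233 with no filter, 28 with a 2-fold minimum, 106 when the 4 libraries that the third component sets apart were left out and 200 when they had a term of their own. It was within 1.5 times of 58 in the other settings and 39 to 65 when single libraries were left out. The ImCD4 effect reached 1797 genes, 388 of them at least 2-fold, and 1055 to 1953 with single libraries left out: 1086 without control replicate 1 and 1055 without dKO replicate 2. With library size only, 757 of its genes were higher and 853 lower, against 972 and 825. The ImCD8 effect reached 822 genes, 231 with a 2-fold minimum, 1280 with no filter, 1420 with the term, and 473 to 883 with single libraries left out, with 473 without control replicate 1. None of the 58 reversed in a tested setting, 27 were called in every setting that tested them, 29 in every fit without 1 library, and 223 of 1218 pairs of a gene and a setting did not pass. Without the 4 libraries 13 were lost, in limma-voom 4 and in DESeq2 0. As a difference of CPM changes 53 of 58 kept their sign, and 5 reversed: Cd160 (-2.75), Emp3 (-78.2), Aqp9 (43.6), Thy1 (17.4) and Il17rb (31.1 CPM). Of genes not called, Col1a1 reversed in limma-voom (0.24), without dKO ImCD8 replicate 3 (0.051; -0.92 to 0.051 over single libraries left out) and without the 4 libraries (0.22), Ighd without dKO ImCD4 replicate 1 (-0.24; -0.24 to 2.78 over single libraries), and Hbb-bs without the 4 libraries (-0.23). The causes of these changes were not tested. No paired analysis was run, because the labels give the groups no shared replicate numbers. Replicate 3 of each group was still apart on the third component. A block for each replicate number was not fitted, and a source shared across groups was not tested. Genes with a few counts per library, such as Cd86 and Socs3 in dKO ImCD4, have differences whose size the depth leaves imprecise.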
